A study of Macaca mulatta with 7 samples.

Results

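The lumbar enlargement lies below a thoracic spinal cord injury and is spared by the lesion itself, but the descending axons that end in it are cut off from their cell bodies and degenerate. Single-nucleus RNA-seq, which counts the RNA of individual nuclei as unique molecular identifiers (UMIs), was compared here between the lumbar cord of an injured rhesus monkey at 30 days post injury (dpi) and intact lumbar cord. All nuclei of the 2 libraries with at least 1000 UMIs and over 500 detected genes were taken, which gave 9183 nuclei at 30 dpi and 11408 from intact lumbar cord, 20591 of the 67087 nuclei that pass this rule over the 7 libraries of the series. Intact cervical and thoracic cord, with 9685 and 11582 nuclei, served only to show how far intact libraries lie apart.

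All animals were adult female rhesus monkeys (Macaca mulatta) with no transgene and no drug treatment named in the labels. The intact group (0 dpi) had an age of 5 years and received no surgery. The 30 dpi group had an age of 6 years and had undergone a complete transection, in which a block of thoracic cord was cut out, and its lumbar tissue was taken at a distance from the lesion. According to its methods, the study sequenced 1 animal per group, and the cervical, thoracic and lumbar intact libraries are segments of the same animal. Injury, animal, age and library preparation therefore cannot be told apart, no comparison has a replicate check, and no test between libraries and no p-value is given. Every interval is a 95% interval of the counting error alone, and the range of the 3 intact libraries holds no spread between animals.

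The matrices held 130900528 UMIs at 30 dpi and 150987900 for intact lumbar cord, beside 124249162 for the cervical and 129257969 for the thoracic segment. The 2 lumbar libraries shared 27 cell barcodes, 0.294% of the 30 dpi and 0.237% of the intact lumbar nuclei. After the 5% of nuclei with the highest doublet scores were removed from each library, 8724 and 10838 nuclei remained, with medians of 7355 and 6189.5 UMIs. Clusters of nuclei were named from marker genes as microglia-, oligodendrocyte-, neuron-, oligodendrocyte precursor (OPC)- and astrocyte-like, and UMIs were summed over each class and divided by the class total and given as CPM, the usual scale on which every total is equal. At 30 dpi every marker of microglia (10 of 10), oligodendrocytes (9 of 9), OPCs (8 of 8) and astrocytes (8 of 8) was higher in its own class than in the other 4, and so were 8 of 10 neuron markers, the exceptions being MAP2 and GAD1. Clusters were named with these same markers, so the counts describe the naming and do not check it. CSF1R, the receptor that microglia need to survive, had 322 CPM in microglia-like nuclei and at most 4.45 CPM in any of the other 4 classes, and MOG, a myelin surface protein, had 679 CPM in oligodendrocyte-like nuclei against at most 11.4. No cluster met the rule for endothelial-, pericyte/mural-, fibroblast- or Schwann-like nuclei. A gene was considered in a class if it had at least 10 CPM and 20 UMIs in at least 1 of the 2 lumbar libraries, and it is called higher or lower if the log2 ratio of (CPM + 1) was at least 2-fold from intact lumbar cord and the 30 dpi value lay outside the range of the 3 intact libraries. Microglia are the resident macrophages of the cord and clear dying axons and myelin, oligodendrocytes make the myelin of axons and arise from OPCs, and astrocytes take up transmitter and potassium around synapses and turn on intermediate filament and acute-phase genes after injury.

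Microglia-like nuclei made up 44.4% of nuclei at 30 dpi (95% Clopper-Pearson interval 43.4 to 45.5) and 19.1% in intact lumbar cord (18.3 to 19.8), a difference of 25.4 percentage points (24.1 to 26.6), above an intact range of 16.7% to 22.3%. Astrocyte-like nuclei numbered 139 of 8724 at 30 dpi, 1.59%, against 969 of 10838 in intact lumbar cord, 8.94%, and ependymal-like nuclei, of the cells that line the central canal, numbered 43 against 316. The ependymal-like share was 0.493% at 30 dpi (0.357 to 0.663) and 2.92% in intact lumbar cord. It was 0.598% in cervical (0.451 to 0.777) and 0.963% in thoracic cord, so intact lumbar cord was the high library. OPC-like nuclei made up 3.75% against 6.82%. Oligodendrocyte-like nuclei made up 31.5% against 31.8%, a difference whose interval spans 0 (-0.27 points, -1.58 to 1.05). Intact lumbar cord was the lowest of an intact range of 31.8% to 45.8%, and the 30 dpi share lay just below it. Neuron-like nuclei made up 14.6% against 26.1%, but this share lay inside the intact range, which began at 7.35% in thoracic cord. Shares of 1 library sum to 100%, so a larger share of microglia-like nuclei and fewer nuclei of the other classes cannot be told apart. When each nucleus was named alone from its markers, the microglia-like difference was 17.0 points, and with only 4 libraries clustered it was 10.0 points. It was 10.7 points if the 2 clusters led by GPNMB, described next, were left unnamed, an alternative chosen after seeing the data. The run with 4 libraries also left a GPNMB-led cluster unnamed, so these last 2 values overlap.

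**Figure D1:**
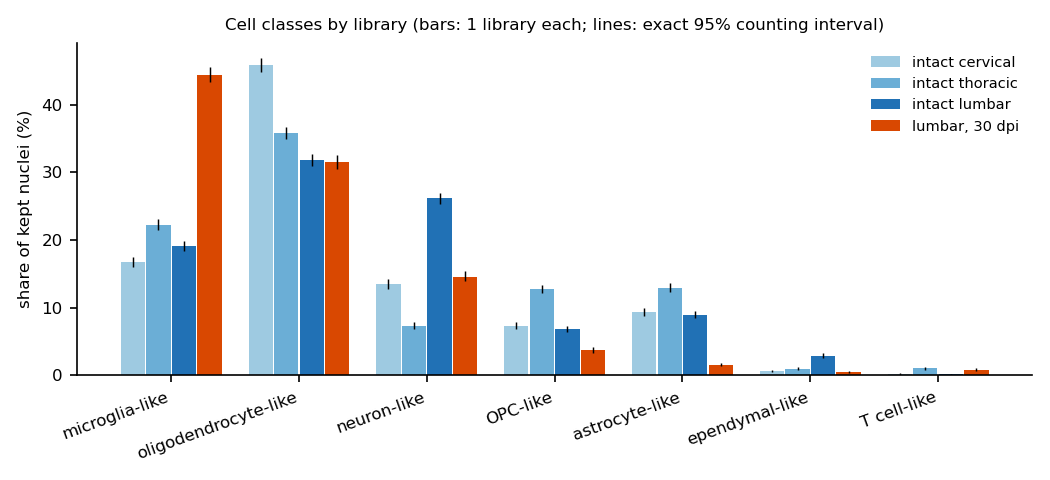
Bars show the share of kept nuclei (y axis, percent) of each class in intact cervical, intact thoracic, intact lumbar and 30 dpi lumbar cord, 1 library per bar, and lines are 95% Clopper-Pearson intervals of the counting error. The 30 dpi bar of microglia-like nuclei stands at 44.4%, above the 3 intact libraries at 16.7% to 22.3%, while its astrocyte-like bar stands at 1.59%, below intact shares that start at 8.94%.

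Of 8702 genes considered in microglia-like nuclei, 702 were higher and 466 were lower at 30 dpi, 13.4% of the genes in either direction, 8.07% higher and 5.36% lower. In the same class 0.563% of the genes were 2-fold apart between intact cervical and lumbar cord, and 1.09% between intact thoracic and lumbar cord. Genes were considered through 30 dpi or intact lumbar cord, so a gene high only in cervical or thoracic cord did not enter. Shares between intact segments, here and in the classes below, can therefore lean low beside those of 30 dpi. The class totals also hold genes that passed only at 30 dpi, and were not counted without them. The nuclei of the 2 libraries lay in different clusters. Of the intact lumbar microglia-like nuclei, 97.5% were in a cluster led by MRC1, FKBP5 and CD163. Of those at 30 dpi, 58.3% were in a cluster led by CD83 and CCL3 and 30.9% in a cluster led by ITGAX and GPNMB, while 6.30% and 2.27% were in a cluster led by SRGN, FOS and TNF and in a further one led by GPNMB and CHIT1. The 2 GPNMB-led clusters were taken as microglia-like by a rule set after clusters had been seen. Their microglia marker scores were 0.252 and 0.192, beside second scores of 0.166 and 0.156 for endothelial markers. Whether they hold microglia or other macrophages was not tested. A cluster drawn mostly from 1 library may be that library and not a cell state, so all microglia-like clusters were pooled below. The count of genes higher at 30 dpi was 446 with the 2 GPNMB-led clusters left out and 445 with 4 libraries clustered. The run with 4 libraries left unnamed a cluster led by GPNMB, ITGAX and CHIT1 (1340 nuclei at 30 dpi), so these alternatives overlap.

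The genes with the largest differences in microglia-like nuclei, ranked by the smallest distance to any intact library, were led by LIPN, a gene of the acid lipase family on chromosome 9 (89023916 to 89042079, Mmul_10). LIPN had 98.4 CPM at 30 dpi (2482 UMIs) against 0.138 CPM in intact lumbar cord (1 UMI), 0.762 in cervical and 0 in thoracic cord. With so few intact counts the log2 ratio of 9.48 carries an interval of 7.00 to 14.78. After every nucleus was thinned to 1000 UMIs, LIPN was detected in 8.62% of microglia-like nuclei at 30 dpi (7.75 to 9.54) and in 0% in intact lumbar cord (up to 0.178), beside 0.236% of neuron-like nuclei at 30 dpi, a class taken to lack it. Unthinned, the shares were 26.3%, 0.0484% and 1.65%, at median depths of 5799.5, 3216 and 39053 UMIs. Of its 30 dpi UMIs 80.8% lay in the CD83- and CCL3-led cluster.

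CHIT1, the chitinase that lipid-laden macrophages secrete (chromosome 1, 60716866 to 60729929), had 208 CPM at 30 dpi against 1.10 in lumbar, 0.457 in cervical and 4.001 in thoracic intact cord. Its log2 ratio was 7.56 (6.58 to 8.77), and 11.3% of microglia-like nuclei held a UMI of it after thinning (24.7% unthinned) against 0.145% in intact lumbar cord (0.194% unthinned) and 0.628% of neuron-like nuclei at 30 dpi (11.1% unthinned). Unlike LIPN, 93.2% of its UMIs lay in the ITGAX- and GPNMB-led cluster, so both genes stood above every intact library but lay mostly in different clusters. SLAMF7, a receptor of the SLAM family on immune cells, had 31.7 CPM (799 UMIs) at 30 dpi and 0 UMIs in intact lumbar cord, at least 76.5-fold higher with 3 counts taken as the floor of the class in that library. BCL2A1, which protects leukocytes from apoptosis, had 75.8 CPM against 1.10, 1.68 and 0.931 in lumbar, cervical and thoracic cord, a log2 ratio of 6.10 (5.12 to 7.31). ADGRE2, an adhesion receptor of myeloid cells, had 231 CPM against 5.11, 6.10 and 7.91. FCRL5, TMEM266, PON3, FLVCR2 and GPNMB complete the set of 10, with log2 ratios from 5.88 (TMEM266) to 8.28 (PON3, 1 intact UMI, interval 5.80 to 13.59).

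At the other end of this ranking, 10 genes were named as lower. CDH13, a cadherin anchored to the membrane by lipid, had 3.21 CPM at 30 dpi against 1512 in lumbar, 1040 in cervical and 1149 in thoracic cord. EPHB2, a receptor for ephrins, had 1.55 CPM against 103, 102 and 109, a log2 ratio of -6.05 (-6.56 to -5.59). CALCR, the calcitonin receptor, had 14.6 CPM against 320, 283 and 275, a ratio of -4.46 (-4.62 to -4.30). A call requires the injured library to be the low one, and the intact values of all 3 genes lay close together. HRH2, a histamine receptor, was at 3 UMIs (0.119 CPM) against 14.6 CPM in intact lumbar cord, a log2 ratio of -6.94 (-9.24 to -5.36). The calcium channel subunit gene CACNA2D1 had 10.2 CPM against 153, and the potassium channel subunit gene KCNAB1 22.2 CPM against 240. TMEM132E, SNTG2, KIAA1549 and ZNF385D, the others of the set, had log2 ratios from -5.98 to -3.89.

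**Figure D2:**
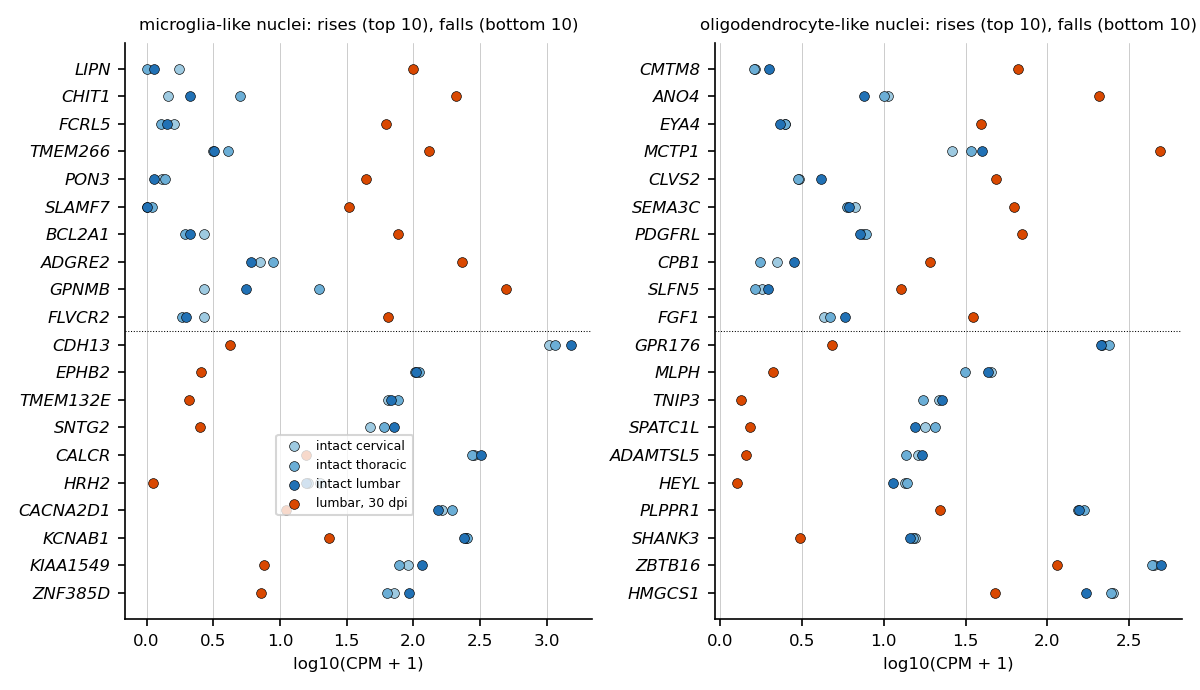
Each row is a gene ranked among the 10 highest (above the dotted line) or 10 lowest (below it) relative to intact cord in microglia-like nuclei (left) and oligodendrocyte-like nuclei (right), and the x axis is log10 of (CPM + 1) in intact cervical, thoracic and lumbar cord and at 30 dpi, 1 library per point. By the rule for a call, the 30 dpi point of each gene lies outside its 3 intact points, as for CDH13 with 3.21 CPM against 1040 to 1512. The intact points of GPNMB (1.68 to 18.6 CPM) and CHIT1 (0.457 to 4.001 CPM) lie far apart among themselves.

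A gene considered only because it passed 10 CPM at 30 dpi had to be higher there. One that passed only in intact lumbar cord had to be lower at 30 dpi, except in astrocyte-like nuclei. That class held 1348579 UMIs at 30 dpi, so 20 UMIs was a stricter limit there than 10 CPM. The direction was set in this way for every named gene that is under 10 CPM in 1 of the lumbar libraries. For lists, counts and medians are also given over the members that passed in intact lumbar cord, a set that can lean the other way. Of 24 phagocytosis and lysosome genes considered in microglia-like nuclei, 12 were higher and 0 lower, with a median log2 ratio of 1.01 beside -0.04 over all genes considered, and the summed level of the list was 6921 CPM at 30 dpi against 2664 in lumbar, 2437 in cervical and 2406 in thoracic cord. Over the 19 that passed in intact lumbar cord, 7 were higher and 0 lower, with a median of 0.52. The 2 GPNMB-led clusters carry much of this list, whose median over the members considered was 0.76 without them. The log2 ratio of (CPM + 1) without them was 2.12 for ITGAX (3.72 with them), 4.29 for GPNMB (6.46), 3.32 for CHIT1 (6.63) and 2.70 for LGALS3 (4.51). ITGAX, the complement receptor subunit CD11c (chromosome 20, 28806444 to 28836024), had 945 CPM against 70.8, 68.5 and 97.3, a log2 ratio of 3.74 (3.61 to 3.87), and was detected in 40.7% of thinned nuclei (72.3% unthinned) against 5.61% (13.3%) in intact lumbar cord and 0.471% of neuron-like nuclei at 30 dpi (12.7%). MITF, a transcription factor of lysosomal genes, had 1285 CPM against 110, 132 and 151, a ratio of 3.55 (3.45 to 3.65). LGALS3, a lectin that marks damaged lysosomes, had 147 CPM against 5.52, 2.74 and 9.40. These 3 genes lay outside the intact range, as a call requires. MSR1, a scavenger receptor, had 764 CPM against 122 in intact lumbar cord, CD68, a lysosomal membrane protein, 20.9 against 4.28, CD63, a tetraspanin of late endosomes, 45.8 against 14.6, and ASAH1, the acid ceramidase, 199 against 49.4.

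MITF and its relatives bind the letters CACGTG, and the AP-1 factors, made of FOS and JUN proteins, bind TGANTCA. Both strands of RefSeq promoters (Mmul_10, 250 bases before to 50 after the start of a gene, 20782 genes) were searched for these letters. CACGTG was held by 8 of the promoters of the 50 genes that the naming rule selected as higher in microglia-like nuclei (16%), a set without CD68 and CD63, by 4 of the 31 selected as lower (12.9%) and by 7.72% of all promoters. TGANTCA was held by 6 (12%), 2 (6.45%) and 5.92%. The naming rule also takes genes that the study text names, among them CHI3L1 (higher) and GRM5 (lower). Among the 12 higher phagocytosis and lysosome genes, CD68 and CD63 held CACGTG, and CD63 and ITGAX held TGANTCA. A match is a description of these letters and not a binding site. The 250 bases before the start of CD63 and of ABCA1, a gene of the next list, are given 5′ to 3′ on the strand of the gene, since they show where the letters stand, with CACGTG and the 7 letters of the AP-1 motif in capitals and all other bases in lower case. In CD63 (chr11:55289030-55289279, minus strand) CACGTG begins 160 bases and TGANTCA 109 bases before the start, and in ABCA1 (chr15:37954646-37954895, plus strand) CACGTG begins 61 bases before it.
CD63: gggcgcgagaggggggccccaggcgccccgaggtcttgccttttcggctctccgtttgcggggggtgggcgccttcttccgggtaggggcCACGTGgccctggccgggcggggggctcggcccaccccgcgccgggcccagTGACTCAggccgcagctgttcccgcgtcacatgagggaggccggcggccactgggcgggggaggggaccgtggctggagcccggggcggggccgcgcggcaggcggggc
ABCA1: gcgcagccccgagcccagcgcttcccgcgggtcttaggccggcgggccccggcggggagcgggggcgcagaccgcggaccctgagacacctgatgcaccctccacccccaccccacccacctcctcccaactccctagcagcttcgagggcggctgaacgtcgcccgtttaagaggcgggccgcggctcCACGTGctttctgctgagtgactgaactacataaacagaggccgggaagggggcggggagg

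Of 18 lipid handling genes considered, 12 were higher and 2 lower, with a median log2 ratio of 1.75, but 6 of the 18 passed only at 30 dpi (ABCG1, CD36, CPT1A, FABP5, NR1H3 and PLIN2). Over the 12 that passed in intact lumbar cord, 6 were higher and 2 lower, with a median of 0.85. Without the 2 GPNMB-led clusters the median of the list was 0.99. The log2 ratio of (CPM + 1) without them was 1.59 for ABCG1 (3.57 with them), 2.55 for FABP5 (4.27) and 2.84 for ABCA1 (3.67). Of the exporters of cholesterol, ABCA1 had 262 CPM against 19.6 in lumbar, 13.3 in cervical and 19.2 in thoracic cord, a log2 ratio of 3.74 (3.50 to 3.99), and ABCG1 had 28.8 CPM against 1.52, 1.07 and 1.40. The nuclear receptor gene NR1H3 (LXR alpha), which activates both exporters, had 12.9 CPM against 1.38 in intact lumbar cord, and PPARG, a nuclear receptor for fatty acids, had 837 against 101. FABP5, a carrier of fatty acids, had 71.7 CPM against 2.76, 4.27 and 4.84, a ratio of 4.70 (4.07 to 5.41). The fatty acid receptor CD36 had 13.9 CPM against 0.276 (2 UMIs), a ratio of 5.65 (3.79 to 8.70), and PLIN2, which coats lipid droplets, 33.5 against 8.14. ACAT2, an enzyme at the start of cholesterol synthesis, was lower, at 4.16 CPM against 16.1. Both lower members passed only in intact lumbar cord, and of the 10 that passed in both libraries 6 were higher and 0 lower (median 1.34).

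Of 16 cytokine, chemokine and NF-kB genes considered in microglia-like nuclei, 8 were higher and 0 lower (median 1.20), and 7 of the 15 that passed in intact lumbar cord were higher (median 0.84). Without the 2 GPNMB-led clusters the median of the list was 0.68. CCL2, which attracts monocytes, had 129 CPM against 21.5, 15.4 and 14.5, CCL8 had 61.5 against 10.9, and the cyclooxygenase gene PTGS2 80.1 against 26.4. Of 16 interferon response genes, 8 were higher and 0 lower (median 1.03), and 4 of the 12 that passed in intact lumbar cord were higher (median 0.62). Among the 8 were USP18 with 36.6 CPM against 3.31, 5.34 and 2.51, and MX1, an antiviral GTPase, with 149 against 40.0, 47.1 and 39.0. Of 13 immediate early genes, which respond to stimuli within minutes and also to tissue handling, 8 were higher and 0 lower (median 1.10), and 7 of the 12 that passed in intact lumbar cord were higher (median 1.09). JUN had 304 CPM against 36.0, 71.7 and 55.6, and FOS had 309 against 70.0, 47.6 and 163, so for FOS the intact libraries themselves lay far apart. Of 5 proliferation genes considered, BRIP1, CENPE and CENPF were higher, at 16.3, 14.7 and 24.6 CPM, of which only CENPF passed in intact lumbar cord, with a ratio of 0.95 without the 2 GPNMB-led clusters. Of 10 heat shock genes 0 were higher and 1, HSPA4L, was lower (8.33 against 25.4 CPM) and passed only in intact lumbar cord. All list counts of microglia-like nuclei stand beside 8.07% of genes considered that were higher and 5.36% that were lower. The heat shock count is near these shares for a list of its size.

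Of 12 homeostatic genes considered, which mark resting microglia, P2RY13, CX3CR1 and CSF1R were lower, 9 were not called and 0 were higher, with a median of -0.56, beside 5.36% of all genes called lower. Without the 2 GPNMB-led clusters none of the 3 was past the fold, with log2 ratios of (CPM + 1) of -0.94, -0.73 and -0.73, and the median was -0.23. CX3CR1, the receptor for fractalkine, had 168 CPM against 431, 560 and 432, a log2 ratio of -1.36 (-1.42 to -1.29), and CSF1R had 322 against 705, 662 and 653. The genes of the complement component C1q, C1QA, C1QB and C1QC, were lower at 38.5, 37.0 and 29.0 CPM against 139, 112 and 76.5 in intact lumbar cord. In the same list of 13, CFB (which passed only at 30 dpi), CD74, B2M and IFI30 were higher, with CD74, the chaperone of class II molecules, at 937 CPM against 407, 313 and 252. Without the 2 GPNMB-led clusters C1QC (-0.99) and IFI30 (0.55) were no longer past the fold. The list of 9 perivascular macrophage genes split. LYVE1 (which passed only in intact lumbar cord), MRC1, CD163, CD163L1 and STAB1 were lower, with CD163, the scavenger receptor for hemoglobin, at 149 CPM against 807, 519 and 422. COLEC12, SIGLEC1, F13A1 and MS4A4A were higher, F13A1 alone of them having passed in intact lumbar cord, with COLEC12, a scavenger receptor with a collagen domain, at 100 CPM against 0.828, 0.457 and 6.79, a log2 ratio of 6.92 (5.79 to 8.36). Without the 2 GPNMB-led clusters its log2 ratio of (CPM + 1) was 1.93, beside 5.79 with them. The median of the list was -1.73, and -2.21 over the 6 that passed in intact lumbar cord.

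At 30 dpi the lists differed between clusters of 1 library, where preparation is shared. Phagocytosis and lysosome genes summed to 11416 CPM in the ITGAX- and GPNMB-led cluster (1197 nuclei) and to 4146 CPM in the CD83- and CCL3-led one (2260 nuclei), while homeostatic genes summed to 4910 and 8364 CPM, and cytokine, chemokine and NF-kB genes to 1328 and 2126 CPM. CDH13 was low in both, at 3.43 and 2.98 CPM. The clusters were made from genes that include ITGAX, GPNMB and CCL3, so these levels are a description. Markers of other classes in microglia-like nuclei summed to 954 CPM against 983 for oligodendrocytes, 720 against 1032 for astrocytes and 404 against 504 for neurons.

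**Figure D3:**
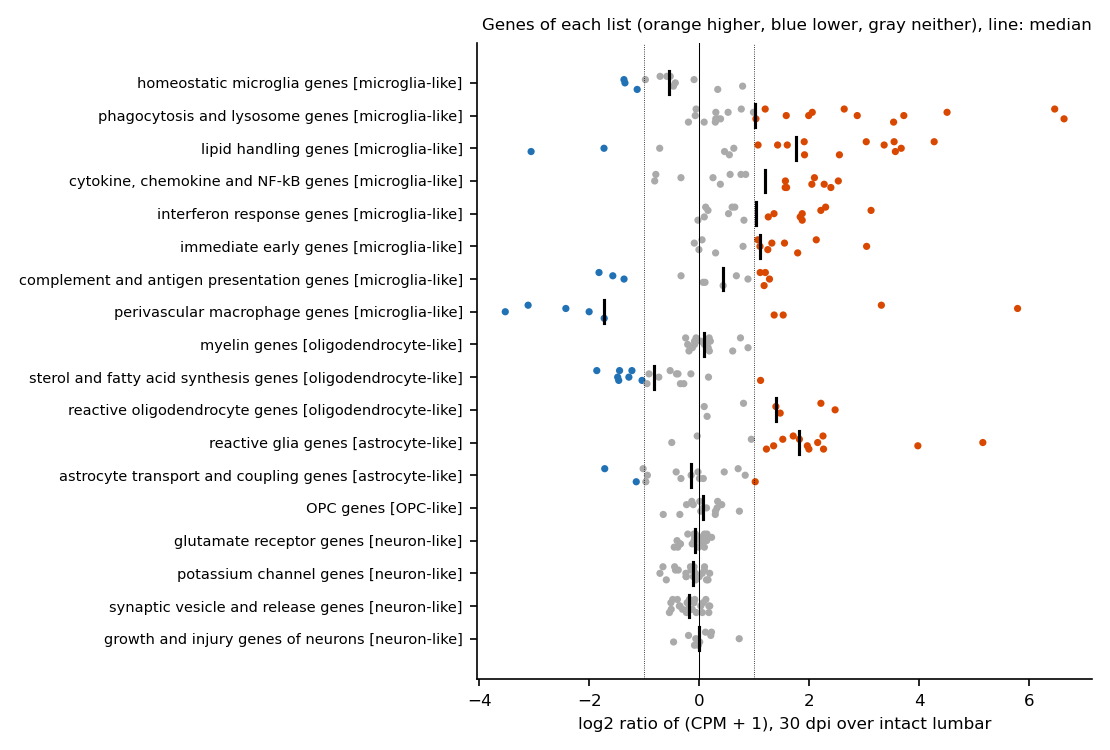
Each point is a gene considered, in the list and class named at the left, and the x axis is the log2 ratio of (CPM + 1) of 30 dpi over intact lumbar cord, with dotted lines at a 2-fold difference and a black line at the median of the list. Orange points are higher and blue points lower at 30 dpi, and the phagocytosis and lipid handling lists of microglia-like nuclei and the reactive glia list of astrocyte-like nuclei have medians of 1.01, 1.75 and 1.82 (0.52, 0.85 and 1.29 over members that passed the filter in intact lumbar cord), while lists of neuron-like nuclei lie near 0.

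In oligodendrocyte-like nuclei, 193 of 8041 genes considered were higher and 144 lower, 4.19% in either direction (2.4% and 1.79%), where 0.0373% and 0.224% of genes were 2-fold apart between intact lumbar and the other intact segments. With each nucleus named alone, 413 were higher and 124 lower. Of 17 myelin genes considered, 0 were called, with a median of 0.09, which for a list of this size is near the share of all genes. MBP, which compacts the myelin sheath, had 7146 CPM against 8479, 7762 and 8108 in lumbar, cervical and thoracic cord. Again different clusters held the class. In intact lumbar cord 44.5%, 29.6% and 20.9% of the nuclei lay in 3 clusters that held 1.13%, 0.509% and 1.16% at 30 dpi, where 61.8% and 35.4% lay in a pair of other clusters, led by OPALIN, CNDP1 and CMTM8 and by FGFR2 and CDK18.

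The highest-ranked gene was CMTM8, a membrane protein of the chemokine-like factor family (chromosome 2, 15343310 to 15473785), with 65.1 CPM at 30 dpi against 0.990, 0.630 and 0.603, a log2 ratio of 6.04 (5.47 to 6.67). CMTM8 was detected in 8.11% of thinned oligodendrocyte-like nuclei (26.1% unthinned) and 0.116% in intact lumbar cord (0.523%), beside 3.79% of microglia-like (12.9%) and 0.943% of neuron-like nuclei (12.8%) at 30 dpi. ANO4, a membrane protein of the anoctamin family, had 207 CPM against 6.61, 9.63 and 9.09, a ratio of 4.97 (4.75 to 5.20). EYA4, a phosphatase and transcriptional coactivator, had 38.3 CPM against 1.31, 1.49 and 1.48. All 3 were low in every intact library, and the OPALIN- and CMTM8-led cluster held 91.7%, 89.1% and 97.3% of their UMIs at 30 dpi. MCTP1, a calcium-binding membrane protein, had 485 CPM against 38.9, 25.2 and 33.0, SEMA3C, a secreted axon guidance signal, 61.4 against 5.11, 5.69 and 4.96, and FGF1, a growth factor, 34.0 against 4.75, 3.33 and 3.66. Neuron-like nuclei held 622 CPM of ANO4 at 30 dpi and 581 CPM in intact lumbar cord, and 545 and 495 CPM of MCTP1. The neuron marker sum in oligodendrocyte-like nuclei was 158 CPM at 30 dpi and 153 CPM in intact lumbar cord, and SNAP25 and SYT1, genes of neurons, were not called there. The part of neuronal RNA in ANO4 and MCTP1 was not tested.

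The lowest-ranked gene was GPR176, an orphan receptor (chromosome 7, 16212159 to 16332273), with 3.81 CPM against 212, 215 and 239, a log2 ratio of -5.80 (-6.09 to -5.52). PLPPR1, a membrane protein related to lipid phosphatases, had 21.1 CPM against 154, 153 and 168, a ratio of -2.87 (-3.00 to -2.75). MLPH, TNIP3, ADAMTSL5, HEYL, SPATC1L and SHANK3 had between 0.257 and 2.05 CPM at 30 dpi and between 10.4 and 42.3 CPM in intact lumbar cord. Of 18 sterol and fatty acid synthesis genes considered, 7 were lower (beside 1.79% of all genes), among them HMGCS1, LSS, IDI1, FDPS, MVD and SC5D, 1 was higher and 10 were not called, with a median of -0.82. HMGCS1, an early enzyme of cholesterol synthesis, had 46.6 CPM against 172, 251 and 243, a ratio of -1.88 (-1.98 to -1.79), and MVD had 21.02 against 59.7, 79.3 and 68.3. The higher member was SREBF1, a transcription factor of fatty acid synthesis, at 42.3 CPM against 18.96, 16.2 and 15.3. In astrocyte-like nuclei 0 of 13 considered members of this list were called (median -0.21). With 4.02% of all genes lower in that class, this is near the share of all genes for a list of this size.

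Of 7 considered genes reported in reactive oligodendrocytes, B2M, NRXN3, CD63 and APOE were higher and 0 lower (median 1.39), but B2M and CD63 passed the filter only at 30 dpi, and 2 of the 5 that passed in intact lumbar cord were higher (median 0.81). B2M, the light chain of class I molecules, had 40.7 CPM against 6.53, 7.53 and 5.75, but was detected in 3.86% of thinned oligodendrocyte-like nuclei (29.1% unthinned) and in 3.77% of neuron-like nuclei (59.2% unthinned) at 30 dpi, so the share in oligodendrocyte-like nuclei was close to that in another class, and expression in oligodendrocytes is not read from it. B2M was higher in all 5 classes, with 32.0 against 6.62 CPM in neuron-, 91.0 against 23.3 in OPC- and 89.0 against 14.6 in astrocyte-like nuclei. CD63 and APOE were also higher in microglia- and astrocyte-like nuclei and were not called in neuron- and OPC-like nuclei. Microglia-like nuclei held 204 CPM of B2M and 487 CPM of APOE at 30 dpi against 94.0 and 129 CPM, and the sum of 10 microglia markers, none of them at 0, was 28.3 CPM in oligodendrocyte-like nuclei against 10.8 in intact lumbar, 14.3 in cervical and 15.3 in thoracic cord. The part of free microglial RNA in these values was not tested. Of 5 interferon response genes considered, 3 were higher, MX1 and IRF9 among them, and 0 lower (median 1.05), but 3 of the 5 passed only at 30 dpi, and 1 of the other 2 was higher. MX1 had 18.2 CPM against 1.35, 2.19 and 2.48, with 78.5% of its UMIs in the FGFR2- and CDK18-led cluster. NRXN3, a presynaptic adhesion protein, had 152 CPM against 32.1, 30.0 and 25.4, where astrocyte-like nuclei held 4798 CPM. Autophagy and RNA splicing genes gave 0 calls among 19 and 24 members considered (medians 0.02 and -0.23), and so did heat shock genes among 10 and genes of committed precursors among 10. With 4.19% of all genes called, this is near the share of all genes for lists of this size.

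**Figure D4:**
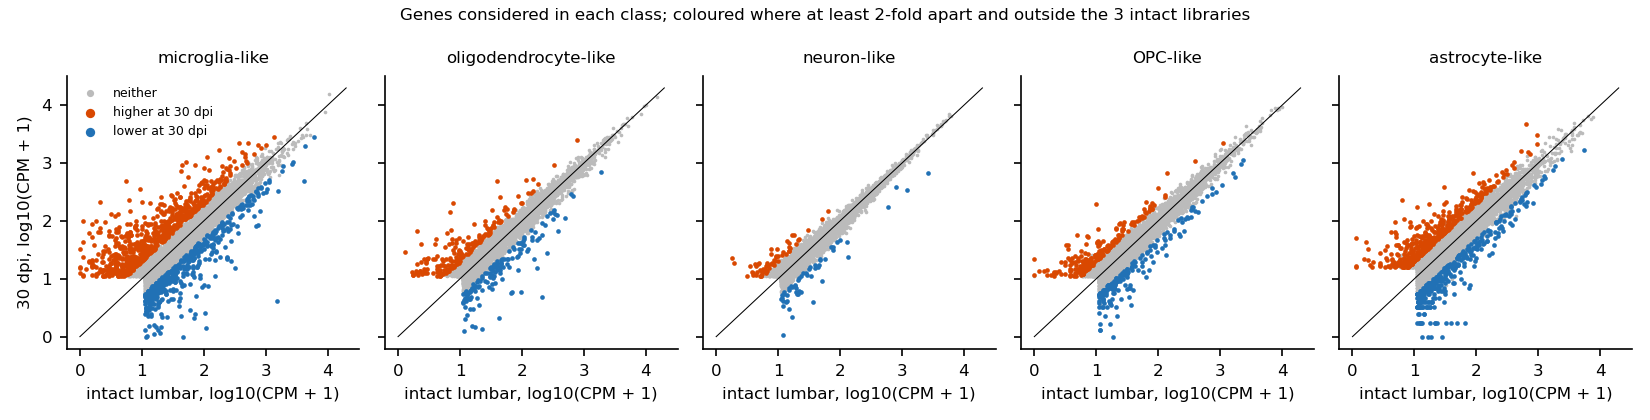
Each point is a gene considered in the class named above the panel, with log10 of (CPM + 1) in intact lumbar cord on the x axis and at 30 dpi on the y axis, 1 library each, and the line marks equal values. Orange and blue points are called higher and lower, and they number 702 and 466 in microglia-like but 60 and 54 in neuron-like nuclei.

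Neuron-like nuclei held the fewest differences. Of 9403 genes considered, 60 were higher and 54 lower, 1.21% in either direction (0.638% and 0.574%), where 0.16% and 0.33% were 2-fold apart between intact segments. Thinning every nucleus to 1000 UMIs turned the split to 82 higher and 205 lower, so the balance of directions is not read here. With fewer nuclei at 30 dpi, 20 UMIs were harder to pass there after thinning, which leans that split toward lower. In 8 lists that describe how neurons work, 0 genes were called, at medians between -0.23 and 0.21, beside -0.03 over all genes considered. With 1.21% of all genes called, lists of this size would hold few calls or none, so nothing particular to them is read from the 0. They were 23 glutamate receptor genes, 19 genes of GABA and glycine receptors and chloride transporters, 20 of sodium and calcium channels, 24 of potassium channels, 7 of monoamine receptors, 25 of synaptic release, 9 of neuropeptides and 10 of growth and injury. HTR2C, a receptor for serotonin, which reaches the lumbar cord from the brainstem, had 631 CPM at 30 dpi against 523, 496 and 347 in lumbar, cervical and thoracic cord, and HTR7 had 85.0 against 100.2, 108 and 126. GAP43, a protein of growing axons, had 123 CPM against 114, 104 and 129, and the neuropeptide gene NPY 21.2 against 12.4, 11.5 and 8.27. Autophagy and RNA splicing genes gave 0 calls among 18 and 23 (medians -0.07 and -0.13).

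Of the 20 genes named in neuron-like nuclei, 14 lay on the same side in all of the 14 clusters compared. The genes were chosen from the pooled counts of these clusters, all from the same libraries, so the clusters do not repeat the comparison. RAB11FIP1, which links recycling endosomes to their motors, had 55.3 CPM against 15.6, 14.7 and 16.4, a log2 ratio of 1.82 (1.73 to 1.91), and NMS, the gene of the peptide neuromedin S, 44.1 against 12.93, 12.05 and 12.53. NMS was higher in other classes too, at 71.3 against 27.6 CPM in oligodendrocyte-, 19.5 against 4.17 in OPC- and 46.7 against 13.8 in astrocyte-like nuclei, and GPAT2 was higher in all 5 classes, SPATA22 in oligodendrocyte- and astrocyte-like and SULT1C3 in oligodendrocyte- and OPC-like nuclei beside neuron-like ones. SOD2, the mitochondrial superoxide dismutase, had 20.8 CPM against 55.3, 58.2 and 46.4, a ratio of -1.41 (-1.498 to -1.318), and ANKRD30A had 43.1 against 130, 162 and 148. RAB11FIP1, NMS, SOD2 and ANKRD30A were among the 14, and the exceptions were BHMT2 and DSC3 (13 clusters each), SULT1C3 and C10H20orf96 (12 each), CHRDL2 (10) and SLC28A2 (5). SOD2 went the other way in microglia-like nuclei, at 53.9 CPM against 17.3, 18.9 and 17.5, a difference that was gone with only 4 libraries clustered or without the 2 GPNMB-led clusters. PON3, a paraoxonase gene on chromosome 3 (110735309 to 110766243), had the largest ratio of the higher genes, 21.6 CPM against 0.821, 0.908 and 1.27 (4.72, 4.38 to 5.07). It was also higher in microglia- and oligodendrocyte-like nuclei (43.0 against 0.138 and 13.7 against 1.94), while astrocyte-like nuclei held 53.4 against 42.3. GPAT2, SULT1C3, SPATA22, PHLDB3, BHMT2, SPAG17 and AGA, the other higher genes of the set, lay between 10.2 and 31.7 CPM at 30 dpi, and the lower ones not yet given, EFHB, C10H20orf96, TMEM82, DSC3, SPATC1L, CHRDL2 and KMT2B, between 3.16 and 9.13. Microglia markers summed to 54.7 CPM in neuron-like nuclei at 30 dpi against 20.9, 21.9 and 24.1 in the intact libraries, and their part in RAB11FIP1, which was higher in microglia-like nuclei too (56.5 against 5.80 CPM), was not tested.

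SLC28A2, a sodium-coupled nucleoside transporter (chromosome 7, 21674182 to 21699876), had the lowest ratio in neuron-like nuclei and rested on few nuclei. It had 3 UMIs at 30 dpi against 1013 in intact lumbar cord, 0.0504 CPM against 10.8, 13.6 and 8.41, a log2 ratio of -7.74 (-10.02 to -6.19). Of the 1013 UMIs, 998 (98.5%) came from 22 nuclei of a cluster whose leading genes include SLC28A2 itself and SLC5A7, the choline transporter of cholinergic neurons, at 463 CPM. At 30 dpi this cluster had 7 nuclei with 0 UMIs of SLC28A2 among 888130, where 3 counts would be 3.38 CPM. The difference in neuron-like nuclei is therefore between 7 nuclei and 22. A further cluster led by SPNS3 and SLC28A2, left unnamed for its low UMI count, is not part of these values. It held 54 nuclei at 30 dpi and 280 in intact lumbar cord.

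The makeup of neuron-like nuclei differed little. In 13 of 15 neuron-like clusters the interval of the difference in share spanned 0, and the differences ranged from -3.24 to 2.03 percentage points. Nuclei with more UMIs of inhibitory than of excitatory marker genes (GAD1, GAD2, SLC6A5 and SLC32A1 against SLC17A6, SLC17A7 and SLC17A8) made up 54.2% of 1183 marked neuron-like nuclei at 30 dpi (51.3 to 57.1) and 58.0% of 2526 in intact lumbar cord (56.0 to 59.9), a difference of -3.77 points (-7.20 to -0.35). Cervical and thoracic cord gave 52.5% and 56.3%, so the 30 dpi share lay inside the intact range.

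In OPC-like nuclei, 208 of 8711 genes considered were higher and 177 lower, 4.42% in either direction (2.39% and 2.03%). Only 327 and 739 nuclei stand behind these values, and thinning every nucleus to 1000 UMIs turned the split to 69 higher and 303 lower. The 15 genes that define OPCs gave 0 calls (median 0.07), with LHFPL3 at 8326 CPM against 6600, 6312 and 6608. Of the proliferation genes, 4 passed the filter, each only through its level at 30 dpi, so that their direction was set by the filter and no count is drawn from them. TOP2A was at 11.2 CPM (35 UMIs) against 2.08, 0.798 and 2.66, CENPF at 10.9 against 0.834, 1.80 and 3.62, KIF11 at 10.2 and KIF15 at 12.1. Their values rest on 32 to 38 UMIs each at 30 dpi. Of the other higher genes, SEMA5B, a guidance protein of the semaphorin family, had 55.2 CPM against 3.96, 6.19 and 7.80, a log2 ratio of 3.80 (3.11 to 4.57), and GAD1, which makes GABA, 71.2 against 9.59, 12.8 and 13.1. GAD1 was not called in neuron-like nuclei, at 60.2 CPM against 77.6, 62.8 and 84.2 in lumbar, cervical and thoracic cord. DDX60, an interferon-inducible helicase, had 37.7 CPM against 2.50, 2.40 and 2.09 and was at 135 against 37.1 in microglia-like and 58.6 against 4.14 in astrocyte-like nuclei.

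Among genes of differentiation in OPC-like nuclei, 1 of 12 considered was higher and 0 lower (median 0.32). ENPP6, an early gene of new oligodendrocytes, had 113 CPM against 53.6, 63.3 and 77.2, and GPR17, which marks committed precursors, 35.8 against 37.3, 34.9 and 33.2. MBP had 370 CPM against 99.0, 278 and 284, so the intact lumbar library was the low one, and the sum of 9 oligodendrocyte markers had the same order, 705 CPM against 310, 578 and 581. With only 4 libraries clustered the ratios of ENPP6 and MBP turned negative (-0.36 and -0.07). Lower genes included PDK4, which blocks the use of glucose by mitochondria, at 1.28 CPM (4 UMIs) against 20.4, 26.0 and 23.4, and Mamu-DPA1, a class II gene, at 2.55 against 35.0, 33.7 and 27.8, although microglia-like nuclei had more of it at 30 dpi (86.2 against 35.8 CPM).

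In astrocyte-like nuclei, 477 of 9035 genes considered were higher and 363 lower, 9.3% in either direction (5.28% and 4.02%), beside 0.387% between intact lumbar and cervical and 3.3% between intact lumbar and thoracic cord. Only 139 nuclei at 30 dpi stand behind them, and thinned nuclei gave 340 higher and 854 lower. Of 15 reactive glia genes considered, 12 were higher and 0 lower, with a median of 1.82 beside 0.02 over all genes considered. Of these 15, 7 passed only at 30 dpi (C1R, C1S, CHI3L1, S100A6, SERPINA3, TIMP1 and VIM), and of the 8 that passed in intact lumbar cord 5 were higher and 0 lower, with a median of 1.29. The whole list summed to 6010 CPM against 1981, 2515 and 3008. GFAP, the intermediate filament of astrocytes, had 3105 CPM against 949, 1266 and 1593, a log2 ratio of 1.71 (1.66 to 1.77). SERPINA3, an acute-phase protease inhibitor (chromosome 7, 156782203 to 156794320), had 228 CPM (308 UMIs) against 5.43, 5.21 and 8.85, a ratio of 5.39 (4.93 to 5.90), and was detected in 10.1% of thinned astrocyte-like nuclei (5.62 to 16.3, 24.5% unthinned) against 0.516% in intact lumbar cord (1.55%) and 0.236% of neuron-like nuclei at 30 dpi (10.5%). CHI3L1, a secreted chitinase-like protein, had 171 CPM against 9.95, 9.15 and 8.12. TNC, the matrix protein tenascin C, had 336 CPM against 74.7, 101 and 111. All of these were above each intact library, as a call requires.

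SPON2, a secreted matrix protein, ranked highest, with 48.9 CPM (66 UMIs) against 0.129 CPM (1 UMI) in lumbar cord and 0 in the others, a log2 ratio of 8.56 (6.04 to 13.89). It was detected in 5.04% of thinned astrocyte-like nuclei (2.05 to 10.1, 15.8% unthinned) and in 0.0786% of neuron-like nuclei (4.01%). C7, a component of the complement attack complex, had 42.3 CPM against 0.646, 1.27 and 0.965, and CP, the copper carrier ceruloplasmin, 96.4 against 7.37, 6.10 and 8.60. NRXN3 had 4798 CPM against 637, 1767 and 2372. For NRXN3 the intact segments themselves lay far apart.

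Astrocyte-like nuclei lay mostly in a pair of clusters. The cluster led by ITGB4 and SLC14A1 held 66.9% of them at 30 dpi against 50.7% in intact lumbar cord, a difference of 16.2 points (7.47 to 24.2). The remainder lay mostly in a cluster led by ITPRID1 and SLC1A2. The ITGB4- and SLC14A1-led cluster held 526 of 863 astrocyte-like nuclei in cervical and 1149 of 1422 in thoracic intact cord. The 30 dpi share therefore lay inside the intact range. Of 7 genes of white matter astrocytes, GFAP, CD44 and TNC were higher and 0 lower (median 0.44), and of 7 genes of gray matter astrocytes, SLC1A2 and ITPRID1 were lower and 0 higher (median -0.94). GFAP, CD44 and TNC are also members of the reactive glia list, so these are calls already counted there. Beside these lists and the transport list below, 5.28% of all genes considered in this class were higher and 4.02% lower. SLC1A2, the main glutamate transporter, had 1673 CPM against 5507 in lumbar, 4146 in cervical and 1863 in thoracic cord, a log2 ratio of -1.72 (-1.78 to -1.66), so the thoracic library lay close to the injured one, and the part of the cluster shares in these values was not tested. Of 15 genes of transport and coupling, 2 were lower, SLC1A2 among them, and 1 was higher. The higher one was GJA1, a gap junction protein, at 217 CPM against 107, 127 and 116, while AQP4, the water channel of astrocyte endfeet, had 916 against 513, 539 and 570. The lowest-ranked genes RBM20, IL1RAPL2 and BTBD11, at 0.742, 5.93 and 6.67 CPM against 47.7, 75.6 and 77.6, are abundant in neuron-like nuclei (104, 229 and 183 CPM at 30 dpi), and the sum of neuron markers in astrocyte-like nuclei was 466 CPM at 30 dpi against 280. DNAH12, ODC1 and C20H16orf89 rest on 2 to 4 UMIs at 30 dpi, and the log2 ratio of ODC1 turned to 0.041 with each nucleus named alone.

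Genes that glucocorticoid hormones induce included lower members in 4 of the 5 classes. They were 5 of 12 considered in microglia-, 4 of 12 in oligodendrocyte-, 4 of 14 in OPC-, 6 of 14 in astrocyte- and 0 of 11 in neuron-like nuclei, at medians of -0.95, -0.53, -0.49, -0.56 and -0.23. Over all genes considered, 5.36%, 1.79%, 2.03%, 4.02% and 0.574% were lower in these classes, so 0 of 11 in neuron-like nuclei is near the share of all genes. Some lower members passed the filter only in intact lumbar cord (MT2A in microglia-, PDK4 in OPC- and astrocyte- and TSC22D3 in astrocyte-like nuclei). Of members that passed in both libraries, 4 of 10 were lower in microglia-, 3 of 13 in OPC- and 4 of 12 in astrocyte-like nuclei. FKBP5, a chaperone of the hormone receptor that the hormone itself induces (chromosome 4, 133793958 to 133913446), had 492 CPM in microglia-like nuclei against 4103, 3582 and 2807 in lumbar, cervical and thoracic cord, a log2 ratio of -3.06 (-3.09 to -3.03). In oligodendrocyte-like nuclei it had 50.1 CPM against 188, 182 and 137, in OPC-like nuclei 116 against 343, 312 and 299.9, in astrocyte-like nuclei 202 against 810.1, 766 and 762, and in neuron-like nuclei 20.3 against 24.0, 34.5 and 36.6. The injured library was the low one in all 5. ZBTB16, a transcription factor with the same induction, had 113 against 493 CPM in oligodendrocyte-, 145 against 445 in OPC-, 84.5 against 379 in astrocyte- and 76.8 against 131 in neuron-like nuclei, and was too low to be considered in microglia-like nuclei (0.635 against 4.28). TSC22D3 was lower in oligodendrocyte-like nuclei (26.4 against 90.8), and had 7.42 against 17.2 in astrocyte-like nuclei. TXNIP was lower in microglia- and oligodendrocyte-like nuclei (121 against 637 and 44.6 against 103) but had 207 against 123 in astrocyte-like nuclei. Higher members were SGK1 in microglia-like nuclei (188 against 21.8 CPM) and the metallothioneins MT2A and MT1E in astrocyte-like nuclei (158 against 45.5 and 310.0 against 117). The classes come from the same 2 libraries, so they do not repeat the comparison, and hormone levels of the animals were not analysed here.

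**Figure D5:**
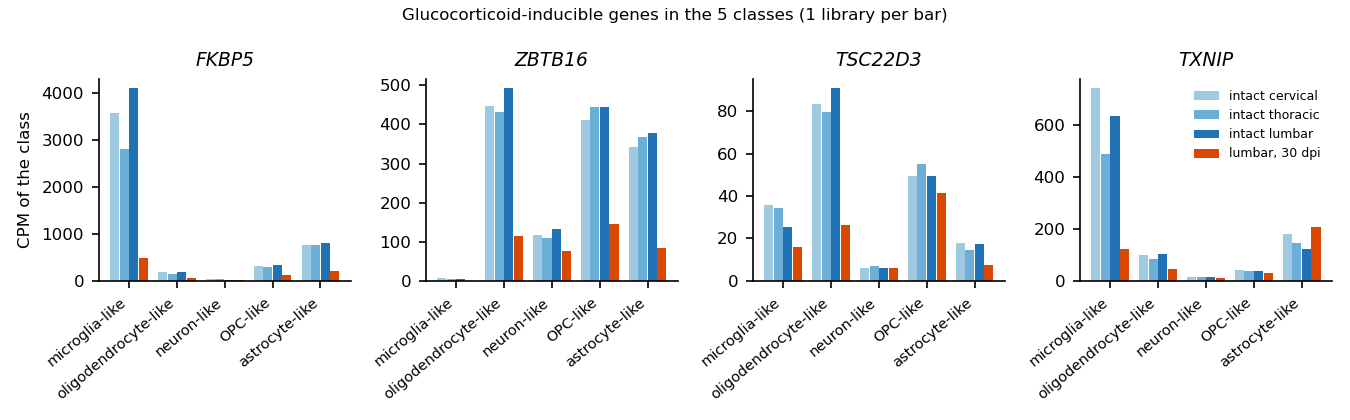
Bars show the CPM (y axis, linear, a scale of its own in each panel) of FKBP5, ZBTB16, TSC22D3 and TXNIP in the 5 classes, 1 bar for each of the libraries intact cervical, intact thoracic, intact lumbar and 30 dpi. The 30 dpi bar of FKBP5 in microglia-like nuclei stands at 492 CPM beside intact bars from 2807 to 4103, while the TXNIP bar of astrocyte-like nuclei, at 207 CPM, and the TSC22D3 bar of neuron-like nuclei, at 6.00 CPM beside 5.95 to 7.17, are not below the intact lumbar ones.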

How the data were processed

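Nuclei of 7 lumbar, cervical and thoracic libraries of rhesus spinal cord were profiled by the submitters with 10x Chromium v3 chemistry. The deposited matrices hold whole UMI counts per gene and barcode, which the authors made with Cell Ranger 6.0.0 on the Mmul_10 assembly, and they were used as deposited. The annotation release is not given in the sources used here.

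Nuclei with at least 1000 UMIs, over 500 genes, at most 10% mitochondrial and at most 5% hemoglobin counts were kept. The 5% with the highest doublet scores were removed from each library, and doublets among the rest cannot be told from single nuclei. All 7 libraries were scaled to 10000 counts per nucleus, and 2000 variable genes, 30 principal components, 20 neighbours and Leiden clustering at resolution 1 were used (Python 3.11.15, scanpy 1.11.5, leidenalg 0.10.2, scikit-learn 1.9.0). A cluster took the name of the marker list with the highest score where the second score was below 0.5 of it or under a floor of 0.2, and leading genes had to fit. That floor was added after clusters had been seen. The members, markers and 31 gene lists were chosen with earlier results of these data known.

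UMIs of each class were summed per library, and ratios were taken on log2(CPM + 1) for calls and medians and on CPM for printed log2 ratios. Mitochondrial and hemoglobin genes were left out. Ratio intervals are exact conditional binomial, shares Clopper-Pearson and differences of shares Newcombe intervals (scipy 1.17.1), all at 95%, and cover counting error only. A class at 0 was given 3 counts as its floor. Genes were named as the 10 (microglia-, oligodendrocyte- and neuron-like) or 6 (OPC- and astrocyte-like) called genes in each direction farthest from the nearest intact library, with at least 50 UMIs and at least 0.25 of the highest CPM of any class, and as up to 6 members of each list, those called with the largest ratios or, with none called, the 2 with most UMIs. Other list members named, such as CD68, CD63, HTR7, GAP43, NPY, GPR17 and AQP4, were chosen after their values were seen. Genes that the study text names, such as CDH13, IL33 and GRM5, were named in addition in each class where they were considered. To count nuclei with a UMI of a gene, each nucleus was thinned to 1000 UMIs. The intervals and calls were tried on simulated Poisson counts, which hold no spread between nuclei, animals or preparations. No change at the 2-fold limit was simulated, so the trial does not cover these features of the data.

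Alternatives left out doublet removal, clustered 4 libraries, named each nucleus alone, thinned nuclei, weighted nuclei equally, used median-of-ratios scaling, the mean of the 3 intact libraries, no filter on low counts, or a 4-fold limit. RefSeq models of Mmul_10 gave positions for 201 of 205 named symbols. A few list members and sequences are not reported here.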

Additional observations from a re-analysis of the deposited data

How the results depend on the processing

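No paired analysis was possible because each side of the comparison holds 1 library, and neither lumbar library could be left out for the same reason. Runs without the cervical or thoracic library were not made, but without the intact range as a condition 13.5% of genes in microglia-like nuclei were 2-fold apart, beside 13.4%. The cause of the changes listed here was not tested, except where the construction sets it (a 4-fold limit calls fewer genes, no filter considers more). The difference in the share of microglia-like nuclei was 10.0 points with 4 libraries clustered, 17.0 with each nucleus named alone and 10.7 with 2 GPNMB-led clusters left unnamed, an alternative chosen after seeing the data. The run with 4 libraries also left a GPNMB-led cluster of 1340 nuclei at 30 dpi unnamed, so it overlaps with that alternative for microglia-like nuclei. With the 3 intact libraries averaged, the differences were -6.26 points for oligodendrocyte-, -1.07 for neuron-, -5.21 for OPC- and -8.82 for astrocyte-like nuclei, and with each nucleus named alone 0.395 (the sign turned), -9.82, -4.84 and -4.93. Without a filter on low counts the higher and lower genes numbered 1106 and 900 in microglia-, 420 and 290 in oligodendrocyte-, 185 and 142 in neuron-, 721 and 531 in OPC- and 1320 and 1053 in astrocyte-like nuclei, and with a 4-fold limit 259 and 105, 51 and 27, 5 and 6, 43 and 29, and 89 and 61. Higher genes of microglia-like nuclei numbered 445 with 4 libraries clustered and 446 without the GPNMB-led clusters. With each nucleus named alone, higher genes numbered 413 in oligodendrocyte- (76.9% of its calls, 57.3% before), 129 in OPC- and 1572 in astrocyte-like nuclei, and lower genes 839 in astrocyte-like nuclei. Without doublet removal 348 genes were higher in OPC-like nuclei (67.3% of calls, 54.0% before). With thinned nuclei, 205 genes were lower in neuron-like, 303 in OPC-like (69 higher) and 854 in astrocyte-like nuclei, so higher genes were 28.6%, 18.5% and 28.5% of the calls in place of 52.6%, 54.0% and 56.8%. The log2 ratio turned sign for FOXP2 in OPC-like (1.18) and ODC1 in astrocyte-like nuclei (0.041) with each nucleus named alone, and with 4 libraries clustered for SOD2 in microglia-like (-0.024) and for ENPP6 (-0.36) and MBP (-0.073) in OPC-like nuclei. Of 193 named values past the fold, 183 remained past it without doublet removal, 178 with 4 libraries clustered, 159 with each nucleus named alone, 146 with thinned nuclei, 174 with nuclei weighted equally, 183 against the intact mean and 191 under median-of-ratios scaling. Without the 2 GPNMB-led clusters 180 remained, but 50 of the 92 named values of microglia-like nuclei moved by more than their counting error. Values of astrocyte- and OPC-like nuclei rest on 139 and 327 nuclei at 30 dpi, which limits their counts.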

Other observations

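Lists of basic cell functions gave these values, to be read beside the 13.4% of all genes called in microglia-like nuclei and 1.21% to 9.3% in the other classes. Of 19 autophagy genes considered in microglia-like nuclei, SQSTM1, a receptor that carries cargo into autophagosomes, was higher (64.3 against 26.1 CPM in intact lumbar cord, but a log2 ratio of 0.49 without the 2 GPNMB-led clusters) and 0 were lower, with a median log2 ratio of -0.01. Of 24 RNA splicing genes 0 were called there (median -0.40). Cytoplasmic ribosomal protein genes gave 0 calls in any of the 5 classes, at medians of 0.35 in microglia-, 0.36 in oligodendrocyte-, 0.29 in OPC-, 0.31 in astrocyte- and 0.14 in neuron-like nuclei. The single immediate early gene considered in oligodendrocyte- and in neuron-like nuclei was not called, nor was any of 9 heat shock genes in neuron-like nuclei (median -0.25).

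Some genes stood apart in more than 1 class, all from the same 2 libraries. SPATC1L had 0.513 CPM at 30 dpi against 14.6 in intact lumbar cord in oligodendrocyte-, 3.68 against 10.4 in neuron- and 0.319 (1 UMI) against 10.4 in OPC-like nuclei, and in astrocyte-like nuclei it had 0 UMIs against 9.05 CPM, at least 4.07-fold lower with 3 counts as the floor. Of 7 reactive glia genes considered in OPC-like nuclei, SERPINA3 (12.1 against 1.25 CPM, 38 and 6 UMIs) and TIMP1, an inhibitor of matrix proteases (10.2 against 3.34), were higher and 0 lower, with a median of 0.62. Both passed the filter only at 30 dpi, and of the 5 that passed in intact lumbar cord 0 were called (median 0.091). SERPINA3 was detected in 2.14% of thinned OPC-like nuclei at 30 dpi (0.865 to 4.36) and in 0.582% of oligodendrocyte-like nuclei. In microglia-like nuclei, IL33, a cytokine held in the nucleus, had 64.4 CPM against 3.17 in lumbar, 5.64 in cervical and 5.58 in thoracic intact cord, a log2 ratio of 4.34 (3.75 to 5.00). A cluster with endothelial and fibroblast markers, left unnamed, held 16 nuclei at 30 dpi and 60 in intact lumbar cord.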
